A study of Mus musculus with 6 samples.

Results

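The genes described here encode 10 potassium channel subunits that shape the resting potential and the repolarisation of ventricular heart muscle cells, measured in whole hearts after myocardial infarction. They were taken by gene symbol from the annotation of a mouse Clariom S array. All 10 were found, among 19572 array features with 1 symbol, and each was represented by 1 feature. They fall into 3 groups by the current they carry. The inward rectifier genes were Kcnj2, Kcnj12, Kcnj11 and Kcnj5, the transient outward genes Kcnd2, Kcnd3 and Kcnip2, and the delayed rectifier genes Kcnh2, Kcnq1 and Kcna5.

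RNA came from 6 mouse hearts, 1 array each, in 3 groups of 2. TTg hearts (genotype Tcf21iCre/Tomato/MGTH2A) were taken 3 months after the left coronary artery had been tied off, and Ctrl hearts (Tcf21iCre/Tomato) 3 or 2 months after it. All mice were male, were operated on at 8 weeks of age and carried a Cre driven by the fibroblast gene Tcf21 and a Tomato reporter. Mice with an ejection fraction above 45% at 2 days were left out. MGTH2A encodes Mef2c, Gata4, Tbx5 and Hand2, transcription factors of the developing heart. In TTg hearts these factors are thus directed to cells of the Tcf21 lineage, whereas the arrays measured the whole heart. The labels do not say how MGTH2A is induced. The series design describes the hearts as independent biological replicates, and their number limits the precision of every value. The question of the main comparison is how channel expression in chronically infarcted hearts differed with the transgene, and that of the second how it differed with time in Ctrl hearts.

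Inward rectifier channels hold the resting membrane potential of ventricular myocytes near the potassium equilibrium and complete the last phase of repolarisation. The transient outward current produces the early notch of the action potential and is a main repolarising current of the short mouse ventricular action potential. Delayed rectifier channels open more slowly during the plateau, and the rapid and slow delayed rectifiers contribute less in adult mice than in larger mammals. Reduced expression of several of these genes is a known feature of failing and hypertrophied hearts.

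Of the transgene's factors, Tbx5 was at 10.72 and 9.31 in TTg hearts, 6.42 and 7.47 in Ctrl hearts at 3 months, and 7.79 and 7.98 in Ctrl hearts at 2 months. Mef2c was at 15.93 and 13.94 in TTg, 12.52 and 12.87 in Ctrl at 3 months, with 12.16 and 12.07 in Ctrl at 2 months. Hand2 was at 9.40 and 8.13 in TTg hearts, against 8.01 and 7.57 in Ctrl hearts at 3 months. Gata4 overlapped, at 14.05 and 13.43 in TTg hearts, against 13.22 and 13.75 in Ctrl hearts at 3 months. Tbx5, Mef2c and Hand2 were higher on both TTg arrays than on every Ctrl array, but for none of the 4 did the difference at 3 months pass the test over all features (limma adjusted p 0.646 to 0.897). Whether these features read transcripts of the transgene, of the endogenous genes or of both was not tested. Across features, the 2 arrays of a group correlated at 0.984 to 0.989. All 10 channel genes were above the level taken as dim, 3.65 or the 30th percentile of mean signal over all features, on all 6 arrays.

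In TTg against Ctrl hearts at 3 months, 9 of the 10 genes had the higher mean in TTg, with a median difference of 0.56 on the log2 scale. Without Ctrl 3-month replicate 1 it was 5 of 10, and without TTg replicate 2 it was 7 of 10. The largest differences were those of Kcnj2, Kcnh2 and Kcnj5. None of the 10 passed the test over all features (limma, adjusted p under 0.05), where 0.00450% of 22206 features did. At an unadjusted p under 0.05 there were 3 of 10, all higher in TTg, against 3.35% of all features in that direction (4.11% were lower). For 4 of 10 both TTg values lay above both Ctrl values, against 19.1% of features, and for none below both (19.3% of features). The 10 genes were chosen with earlier results of these data known, so these shares are descriptions and no test of the 10 as a group. The median difference over all features was 0.01, and 50.9% of features were higher in TTg. Below, each difference is between mean log2 values and is followed by its SE in limma, fitted to all 6 arrays (n = 2 a group).

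**Figure D1:**
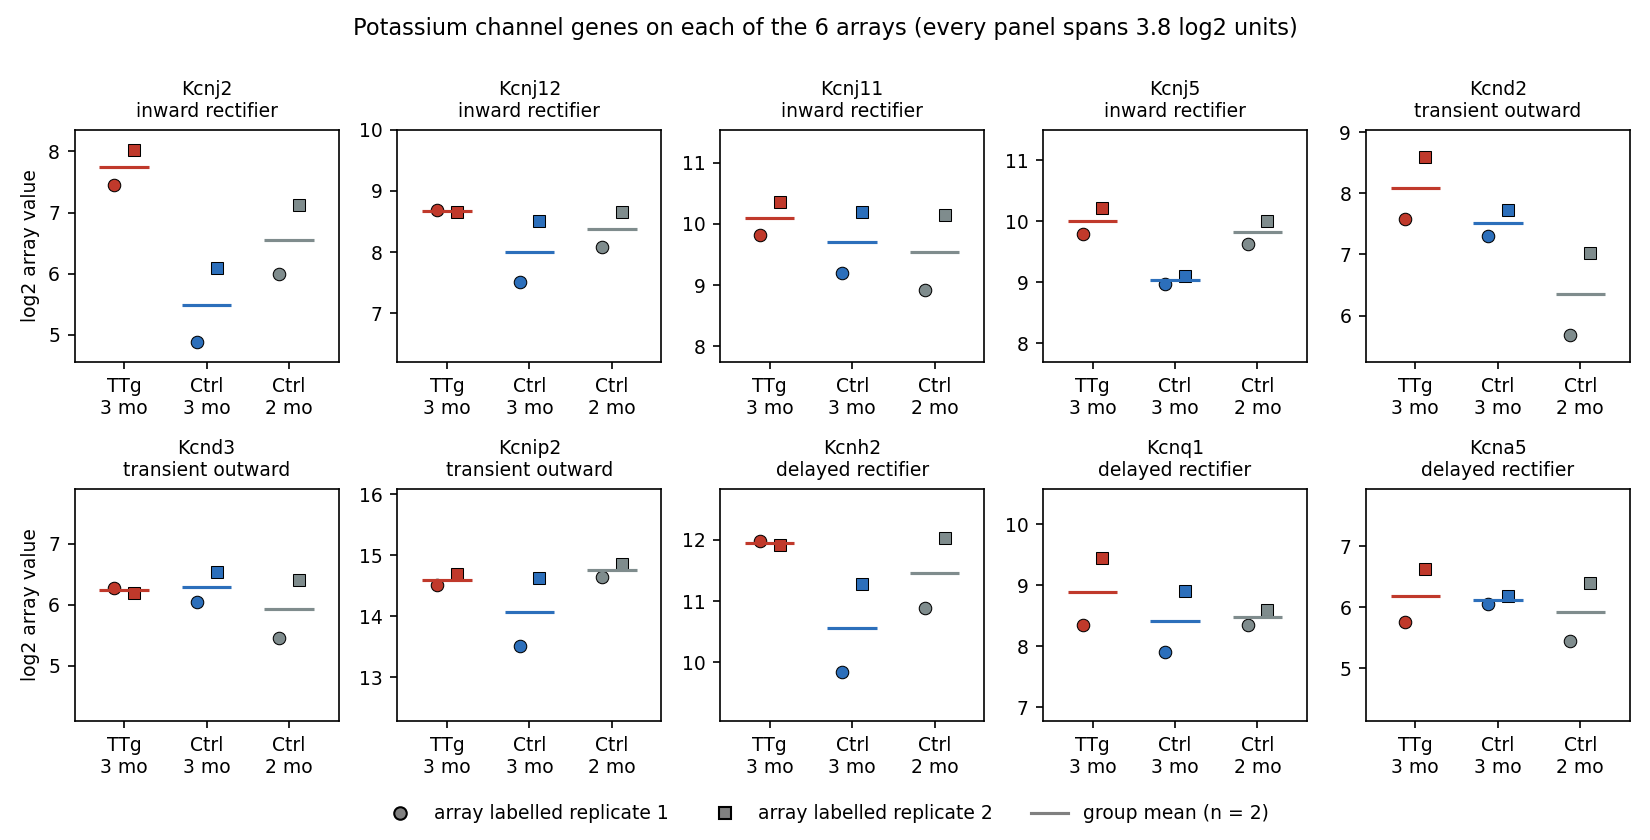
Log2 array values (y axis) of the 10 genes on each of the 6 arrays, by group (x axis: TTg at 3 months, Ctrl at 3 months, Ctrl at 2 months). Symbols are single arrays, circles for replicate 1 and squares for replicate 2, and lines are group means. Both TTg arrays of Kcnj2, at 7.45 and 8.03, sit above all Ctrl arrays, and the Ctrl circles lie below the Ctrl squares in every panel.

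Kcnj2 encodes the main pore subunit of the cardiac inward rectifier current. Its values were 7.45 and 8.03 in TTg hearts, 4.88 and 6.10 in Ctrl hearts at 3 months, and 5.99 and 7.13 in Ctrl hearts at 2 months. It was the 1 gene of the 10 for which both TTg arrays lay above all 4 Ctrl arrays, a pattern shown by 8.70% of all features, and no gene lay below all 4 on both TTg arrays (8.16% of features). The mean was 7.74 ± 0.41 in TTg and 5.49 ± 0.86 in Ctrl at 3 months (SD, n = 2 each). The difference was 2.25 ± 0.52, a 4.76-fold higher mean in TTg (95% interval 1.03 to 3.47 on the log2 scale, unadjusted p = 0.00317, limma adjusted p = 0.646). Against Ctrl at 2 months the difference was 1.18 ± 0.52 (interval -0.04 to 2.40, limma adjusted p = 0.527), and 0.61 without Ctrl 2-month replicate 1. The 2 Ctrl groups overlapped, and Ctrl at 3 months minus Ctrl at 2 months was -1.07 ± 0.52 (interval -2.29 to 0.15). Leaving out 1 array moved it to -0.46 (without 3-month replicate 1), -0.50 (without 2-month replicate 2), -1.64 (without 2-month replicate 1) or -1.68 (without 3-month replicate 2). By group mean the order was TTg, then Ctrl at 2 months, then Ctrl at 3 months.

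Kcnj12 encodes another pore subunit of the same inward rectifier current, which can assemble with the Kcnj2 product. Its values were 8.69 and 8.65 in TTg hearts, 7.51 and 8.50 in Ctrl hearts at 3 months, and 8.08 and 8.66 in Ctrl hearts at 2 months. The TTg arrays lay above both Ctrl arrays at 3 months, but the higher of the 2-month Ctrl arrays fell between the TTg values. The difference at 3 months was 0.67 ± 0.37 (interval -0.21 to 1.54, limma adjusted p = 0.740). Without the Ctrl array at 7.51, which is 3-month replicate 1, it was 0.17, and without 3-month replicate 2 it was 1.16.

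Kcnj5 encodes a subunit of the acetylcholine-gated inward rectifier, a channel best known in atrial and nodal cells. It stood at 9.79 and 10.22 in TTg hearts, 8.97 and 9.10 in Ctrl hearts at 3 months, and 9.63 and 10.01 in Ctrl hearts at 2 months. The 3-month Ctrl values lay below all others, and the TTg and the 2-month Ctrl values overlapped. TTg exceeded Ctrl at 3 months by 0.97 ± 0.27 (interval 0.34 to 1.60, unadjusted p = 0.00810, limma adjusted p = 0.661). Ctrl at 3 months minus Ctrl at 2 months was -0.79 ± 0.27 (interval -1.41 to -0.16, unadjusted p = 0.0212, limma adjusted p = 0.547). Its partner in that channel, Kcnj3, had a like order of groups, with 11.68 and 11.51 in TTg, 9.16 and 10.33 in Ctrl at 3 months, with 10.13 and 11.12 in Ctrl at 2 months. The Kcnj3 difference between TTg and Ctrl at 3 months was 1.85 ± 0.46 (limma adjusted p = 0.646).

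Atrial markers were uneven between the arrays. The mean of 10 atrial marker genes was 11.54 and 10.62 on the TTg arrays, 10.46 and 7.35 on the 3-month Ctrl arrays, with 10.06 and 10.47 on the 2-month Ctrl arrays. None of the 10 was dim, and Ctrl 3-month replicate 2, at 7.35, stood apart from the other 5 arrays. Of the 10, 6 had a higher and 4 a lower mean in TTg than in Ctrl at 3 months. Against Ctrl at 2 months 5 were higher and 5 lower. Bmp10 had the largest difference in both comparisons. It was at 11.92 and 11.46 in TTg, 2.87 and 3.04 in Ctrl at 3 months, with 2.40 and 6.88 in Ctrl at 2 months (limma adjusted p = 0.578 at 3 months). Myl7 was at 12.39 and 11.24 in TTg, 10.21 and 3.45 in Ctrl at 3 months, with 9.73 and 10.23 in Ctrl at 2 months. Myl4 was at 16.23 and 14.53 in TTg, 16.08 and 5.90 in Ctrl at 3 months, with 14.39 and 15.09 in Ctrl at 2 months. Bmp10 was thus low on both 3-month Ctrl arrays, whereas Myl7 and Myl4 were low on replicate 2 alone. The 3-month Ctrl arrays, far apart in the mean of the atrial markers, differed by 0.13 in Kcnj5 and by 1.17 in Kcnj3. Both genes were higher on replicate 2, the array with the lower atrial mean. In that group replicate 2 was higher for all 10 of the channel genes described here. Leaving out either 3-month Ctrl array gave Kcnj5 differences of 0.91 (replicate 1) and 1.04 (replicate 2). The part of atrial tissue in the Kcnj5 and Kcnj3 differences was not tested.

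Kcnj11 encodes the pore of the ATP-sensitive potassium channel, which opens when ATP falls. Its values were 9.82 and 10.36 in TTg hearts, 9.20 and 10.20 in Ctrl hearts at 3 months, and 8.92 and 10.15 in Ctrl hearts at 2 months. All 3 groups overlapped. The difference at 3 months was 0.39 ± 0.49 (interval -0.77 to 1.55), and it was -0.11 without Ctrl 3-month replicate 1, 0.89 without replicate 2, and 0.66 and 0.12 without TTg replicates 1 and 2. Abcc9, the regulatory subunit of the ventricular form of this channel, stood at 14.90 and 15.43 in TTg, 13.20 and 14.72 in Ctrl at 3 months, with 13.69 and 15.04 in Ctrl at 2 months (difference at 3 months 1.21 ± 0.60, limma adjusted p = 0.700).

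Among the delayed rectifier genes, Kcnh2, the pore subunit of the rapid component, differed most. It had 11.98 and 11.92 in TTg hearts, 9.84 and 11.28 in Ctrl hearts at 3 months, and 10.89 and 12.03 in Ctrl hearts at 2 months. Both TTg values lay above both 3-month Ctrl values and below the higher 2-month Ctrl value. The mean was 11.95 ± 0.04 in TTg and 10.56 ± 1.02 in Ctrl at 3 months (SD, n = 2 each), a difference of 1.39 ± 0.53 or 2.62-fold (interval 0.13 to 2.65, unadjusted p = 0.0344, limma adjusted p = 0.661). Leaving out the lower of the 3-month Ctrl arrays, replicate 1, gave 0.67, and leaving out replicate 2 gave 2.11. Against Ctrl at 2 months it was 0.49 ± 0.53, and -0.08 without Ctrl 2-month replicate 1 and 1.06 without replicate 2.

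Kcnq1, the pore subunit of the slow component, had 8.35 and 9.44 in TTg hearts, 7.91 and 8.91 in Ctrl hearts at 3 months, and 8.35 and 8.60 in Ctrl hearts at 2 months. The 3 groups overlapped, with a difference of 0.49 ± 0.45 between TTg and Ctrl at 3 months (interval -0.58 to 1.55) that ran from -0.06 (without TTg replicate 2) to 1.03 (without TTg replicate 1) with 1 array left out. Its accessory subunit Kcne1 differed by 0.42 ± 0.35. Kcna5 encodes the channel of an ultrarapid delayed rectifier current that is large in mouse ventricle. It had 5.75 and 6.62 in TTg, 6.06 and 6.19 in Ctrl at 3 months, with 5.45 and 6.39 in Ctrl at 2 months. The TTg values enclosed the 3-month Ctrl values, and the difference was 0.06 ± 0.40 (interval -0.89 to 1.01), or -0.38 and 0.50 without TTg replicates 2 and 1.

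**Figure D2:**
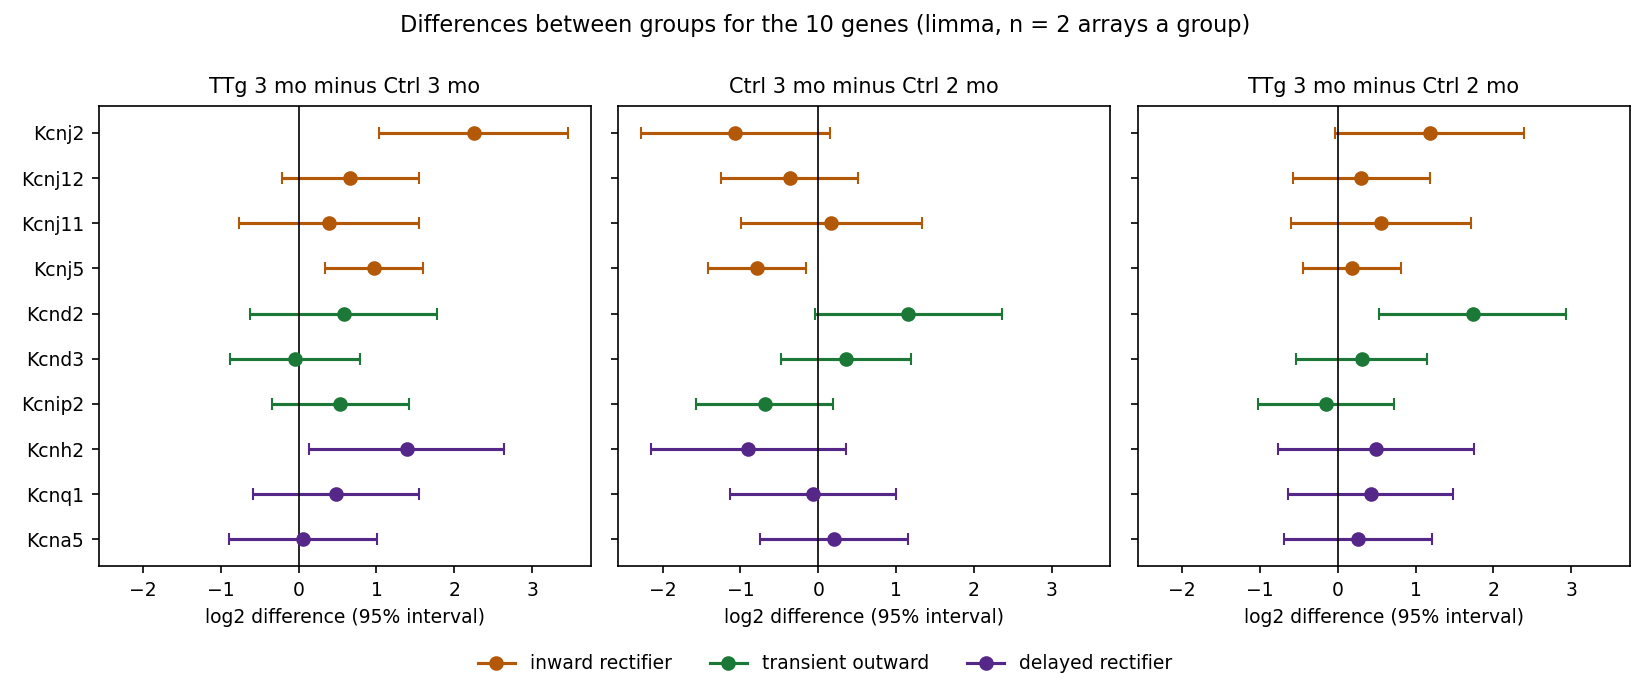
Log2 differences between group means (x axis) of the 10 genes (rows) in 3 comparisons, with 95% intervals from limma, coloured by current. In TTg minus Ctrl at 3 months the intervals of Kcnj2, Kcnj5 and Kcnh2 lie above 0. Kcnd2 lies above 0 in TTg minus Ctrl at 2 months, and Kcnj5 below 0 in Ctrl at 3 minus 2 months.

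Because the transgene encodes transcription factors, the sequences before the gene starts of the 3 genes with an unadjusted p under 0.05 at 3 months are shown here. Each is the 250 bases before the annotated start on the gene's own strand, 5′ to 3′, from RefSeq on GRCm38.p6.
Kcnj2, chr11:111065914-111066163, plus strand: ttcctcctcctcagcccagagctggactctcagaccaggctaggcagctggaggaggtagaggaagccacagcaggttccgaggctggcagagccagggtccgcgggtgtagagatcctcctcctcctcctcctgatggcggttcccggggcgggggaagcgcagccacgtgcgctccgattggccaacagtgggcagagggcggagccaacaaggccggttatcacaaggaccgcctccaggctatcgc
Kcnj5, chr9:32344345-32344594, minus strand: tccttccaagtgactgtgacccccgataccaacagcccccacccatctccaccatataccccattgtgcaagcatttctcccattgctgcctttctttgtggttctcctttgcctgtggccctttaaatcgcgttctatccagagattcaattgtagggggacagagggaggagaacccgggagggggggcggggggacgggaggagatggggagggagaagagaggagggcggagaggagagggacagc
Kcnh2, chr5:24329592-24329841, minus strand: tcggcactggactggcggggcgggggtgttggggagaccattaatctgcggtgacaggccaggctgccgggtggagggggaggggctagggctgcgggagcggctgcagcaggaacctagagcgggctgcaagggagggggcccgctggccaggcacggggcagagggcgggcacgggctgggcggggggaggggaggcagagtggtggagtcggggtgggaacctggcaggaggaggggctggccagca
The GC content was 65.6% for Kcnj2, 58.0% for Kcnj5 and 73.6% for Kcnh2, against a median of 52.4% over 32851 such windows. Windows were at hand for 8 of the 10 genes (all but Kcnj11 and Kcnq1) and were searched on both strands for the T-box core GGTGTGA, the GATA core AGATAA, the E-box CATCTG and 2 forms of the MEF2 core. None of the 5 was found in any of the 8 windows, so no base is in capitals. In all windows the shares were 3.33% for the T-box core, 9.99% for the GATA core, 14.4% for the E-box, and 0.140% and 0.103% for the MEF2 cores. The result says only that these letters are not in these windows. Other forms of the GATA core and the E-box were not searched, such as ttatca and cagctg in the Kcnj2 window.

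The transient outward genes did not share 1 pattern. Kcnd2, a pore subunit of the fast transient outward current, had 7.58 and 8.60 in TTg hearts, 7.30 and 7.72 in Ctrl hearts at 3 months, and 5.68 and 7.03 in Ctrl hearts at 2 months. Both 3-month groups lay above the 2-month arrays, and they overlapped with each other. TTg minus Ctrl at 2 months was 1.74 ± 0.51 (interval 0.53 to 2.94, unadjusted p = 0.0111, limma adjusted p = 0.394), Ctrl at 3 minus 2 months 1.16 ± 0.51 (interval -0.05 to 2.36), and TTg minus Ctrl at 3 months 0.58 ± 0.51 (interval -0.62 to 1.78). Of the 10 genes, Kcnd2 had the largest difference between TTg and Ctrl at 2 months. Without Ctrl 2-month replicate 1, the array at 5.68, it was 1.06. Ctrl at 3 minus 2 months was 0.48 without that array and 1.83 without 2-month replicate 2. TTg minus Ctrl at 3 months was 0.07 without TTg replicate 2 and 1.09 without TTg replicate 1, and 0.37 without Ctrl 3-month replicate 1.

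Kcnd3, the other pore subunit of that current, had 6.27 and 6.20 in TTg hearts, 6.04 and 6.53 in Ctrl hearts at 3 months, and 5.46 and 6.40 in Ctrl hearts at 2 months. It was the 1 gene with a lower mean in TTg than in Ctrl at 3 months, with a difference of -0.05 ± 0.36 (interval -0.89 to 0.79). Its TTg values lay inside the range of the 3-month Ctrl values. The sign turned under quantile normalization, at 0.012. Kcnip2 encodes the accessory subunit that carries these channels to the cell surface. It had 14.51 and 14.69 in TTg, 13.51 and 14.62 in Ctrl at 3 months, with 14.65 and 14.86 in Ctrl at 2 months. A single array, Ctrl 3-month replicate 1, stood apart from the other 5. The difference between TTg and Ctrl at 3 months was 0.54 ± 0.37 with that array and -0.02 without it, and 1.09 without Ctrl 3-month replicate 2.

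In Ctrl hearts at 3 against 2 months, 4 of the 10 genes had a higher mean and 6 a lower one, with a median of -0.22 (all features 0.01). Kcnd2 had the highest difference and Kcnj2 the lowest. None passed (limma, 0.00450% of features did), and 1 of 10, Kcnj5, had an unadjusted p under 0.05, against 4.09% of features lower and 3.91% higher (8.00% in all). The groups did not overlap for Kcnd2, higher at 3 months (18.3% of features), and for Kcnj5 and Kcnip2, lower (17.4% of features). The median of the inward rectifier genes was -0.58, that of the transient outward genes 0.36 and that of the delayed rectifier genes -0.07. Without Ctrl 3-month replicate 1 the median over the 10 was 0.20, with 6 higher, and without Ctrl 2-month replicate 1 it was -0.55, with 1 higher.

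In TTg hearts at 3 months against Ctrl hearts at 2 months, which differ in genotype and in time, 9 of 10 had a higher mean, with a median of 0.36 (all features 0.02). None passed limma's test, as was true of all 22206 features (0% of features), of which 2156 (9.71%) had an unadjusted p under 0.05. In the higher direction 1 of 10, Kcnd2, had an unadjusted p under 0.05, against 4.30% of features, and none was lower (5.41%). Kcnj2 and Kcnd2 did not overlap, higher in TTg (21.2% of features), and no gene was lower without overlap (18.9%). Kcnip2 was the 1 gene with a lower mean in TTg, with a difference of -0.16 ± 0.37. Without Ctrl 2-month replicate 1 the median was -0.033, with 4 of 10 higher, and without TTg replicate 2, 6 of 10 were higher. The 3 comparisons share arrays, so their values for a gene are not independent.

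By current, the differences between TTg and Ctrl at 3 months had medians of 0.82 for the inward rectifier genes (4 of 4 higher), 0.54 for the transient outward genes (2 of 3 higher) and 0.49 for the delayed rectifier genes (3 of 3 higher). Leaving out a 3-month Ctrl array gave a median over the 10 genes of 0.08 (replicate 1) or 1.01 (replicate 2). Leaving out a TTg array gave 0.85 (replicate 1) or 0.28 (replicate 2). The inward rectifier median stayed between 0.54 and 1.10 with 1 array left out. The transient outward median ran from -0.02 (without Ctrl 3-month replicate 1) to 0.79 and the delayed rectifier median from -0.06 (without TTg replicate 2) to 1.03.

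The arrays of a group differed from each other in the same direction for most of these genes. In TTg hearts, the array labelled replicate 2 had the higher value for 7 of 10, with a median difference of 0.49. In both Ctrl groups it was higher for 10 of 10, with medians of 0.995 at 3 months and 0.94 at 2 months. Over all features, replicate 2 was higher in 48.5% in TTg, 47.9% in Ctrl at 3 months and 51.9% in Ctrl at 2 months. The numbers are not known to mark a shared litter or day.

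Means of fibroblast, macrophage and endothelial markers were higher on replicate 1 in each group, the reverse of most channel genes. The 9 measured endothelial markers averaged 11.11 and 10.58 in TTg, 11.07 and 10.79 in Ctrl at 3 months, with 11.06 and 10.64 in Ctrl at 2 months. The mean of 9 measured fibroblast markers was 11.96 and 10.74 on the TTg arrays, 13.35 and 12.39 on the 3-month Ctrl arrays, with 13.42 and 11.71 on the 2-month Ctrl arrays, higher on replicate 1 in each group. All 9 had a lower mean in TTg than in Ctrl at 3 months, with a median difference of -1.29. The 9 measured macrophage markers averaged 8.45 and 7.75 in TTg, 10.51 and 8.94 in Ctrl at 3 months, with 10.10 and 9.21 in Ctrl at 2 months. These 9 also all had a lower mean in TTg than in Ctrl at 3 months, with a median difference of -1.515. An unadjusted p under 0.05 in limma was reached by 6 of the 9 macrophage and 2 of the 9 fibroblast markers, against 4.11% of all features lower. None of either list passed the adjusted threshold, and none was dim. Their part in the differences between channel genes was not tested. In whole-heart RNA, fewer cells of a type and less RNA per cell cannot be told apart.

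All 12 working cardiomyocyte markers were above the dim threshold. Their mean was 18.39 and 18.39 in TTg, 18.07 and 18.37 in Ctrl at 3 months, with 17.98 and 18.24 in Ctrl at 2 months, and 5 of the 12 reached 19 or more on some array, near the top of the scale. When every array was shifted to an equal mean of these 12 markers, the Kcnj2 difference at 3 months was 2.08, that of Kcnh2 1.22 and that of Kcnj5 0.80. With the 7 markers below 19 alone they were 2.04, 1.18 and 0.76. Both shifts were chosen after the values were seen. Of the 12 markers, 9 had a higher and 2 a lower mean in TTg than in Ctrl at 3 months. Ryr2 differed most, at 16.06 and 16.49 in TTg and 14.95 and 15.90 in Ctrl (0.85 ± 0.45, limma adjusted p = 0.717). Values near the top may be compressed, which would limit what the shifts can correct. The part of myocyte RNA in the channel differences was not tested.

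**Figure D3:**
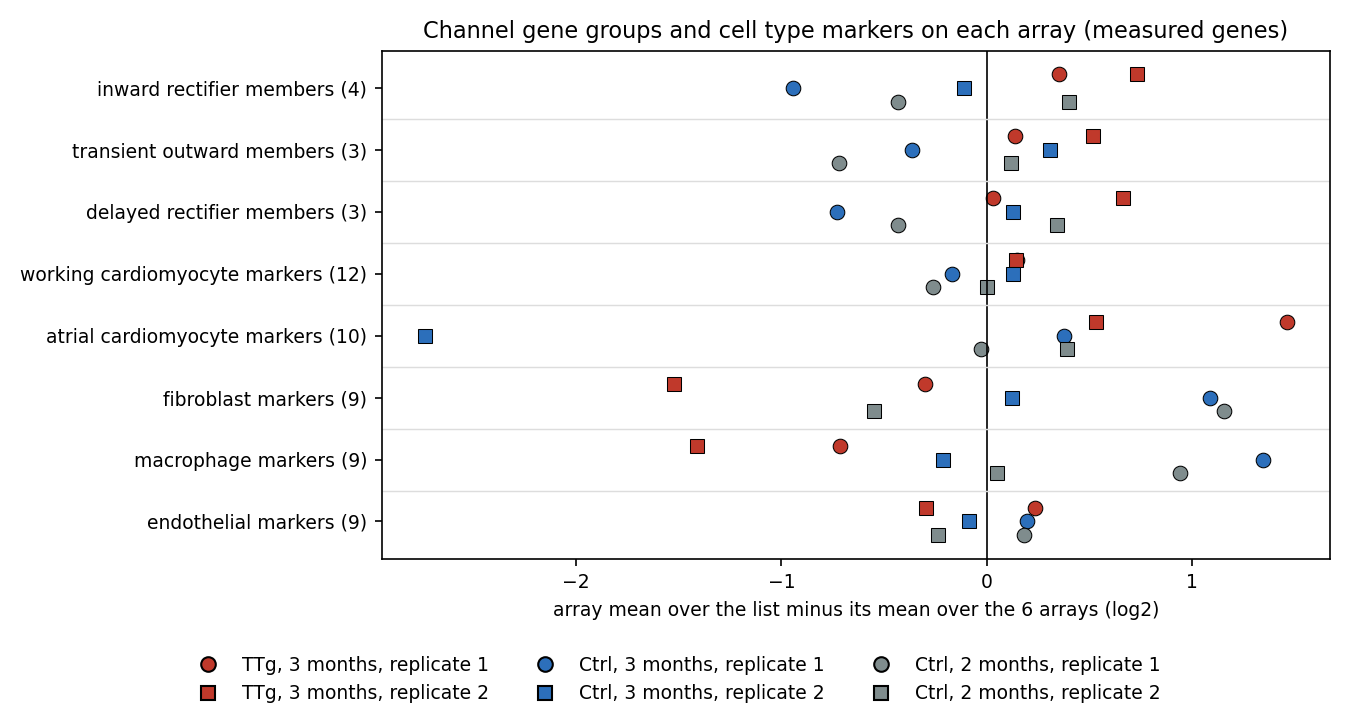
Array mean over each gene list minus its mean over the 6 arrays (x axis, log2), for the channel genes by current and for marker lists of 5 cell types (rows, number of measured genes in brackets). Red, blue and grey are TTg at 3 months, Ctrl at 3 months and Ctrl at 2 months, and circles and squares are replicates 1 and 2. In each group the circle lies left of the square for the channel genes and right of it for the fibroblast, macrophage and endothelial markers.

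Of 61 other potassium channel subunit genes listed, 55 were measured and 32 had a mean above the dim threshold. Between TTg and Ctrl at 3 months 26 had a higher, 28 a lower and 1 (Kcnc4) an equal mean, with a median of -0.01, and 0 of 55 passed limma's test. An unadjusted p under 0.05 was reached by 3 higher and 1 lower gene, together 7.27%, against 7.47% of all features. After Kcnj3 and Abcc9, the largest difference among those above the threshold was that of Kcnk6, of the tandem pore family, at 5.48 and 6.09 in TTg and 7.21 and 6.47 in Ctrl at 3 months (-1.06 ± 0.33, limma adjusted p = 0.661). In Ctrl hearts at 3 against 2 months, 27 were higher and 28 lower, and Kcnk3, a gene of the same family, differed most, at 8.90 and 9.91 at 3 months and 7.74 and 8.65 at 2 months (1.21 ± 0.42, limma adjusted p = 0.551).

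**Figure D4:**
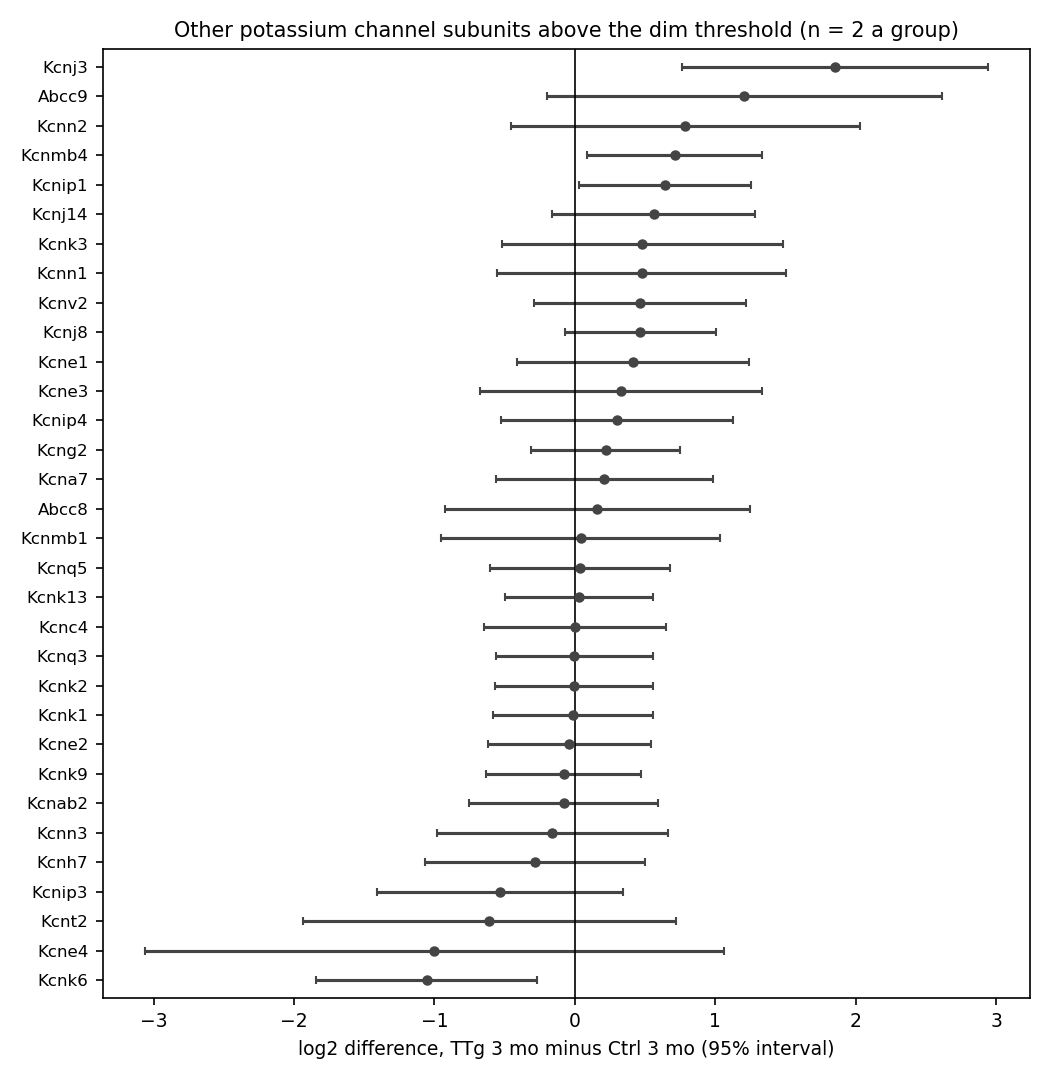
Log2 differences between TTg and Ctrl at 3 months (x axis) with 95% limma intervals for the 32 other potassium channel subunit genes above the dim threshold (rows, in order of difference). Kcnj3 leads at 1.85, Kcnk6 lies lowest at -1.06, and most intervals include 0.

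Genes of depolarising channels and gap junctions gave a median of 0.07 between TTg and Ctrl at 3 months, with 13 of 18 measured genes higher, 5 lower and 0 past limma's test. The sodium-calcium exchanger gene Slc8a1 had the largest difference, with 14.38 and 14.32 in TTg and 13.18 and 13.69 in Ctrl (0.92 ± 0.46). Scn4b, a sodium channel subunit gene, was next, with overlapping values of 6.88 and 8.46 in TTg and 6.94 and 6.93 in Ctrl (0.74 ± 0.56, limma adjusted p = 0.820). Hcn4, a pacemaker channel gene, had 6.17 and 6.05 in TTg and 5.27 and 5.53 in Ctrl (0.71 ± 0.24, limma adjusted p = 0.661).

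Among regulators of cardiac channels and of the cells that carry them, 15 of 17 measured genes had a higher mean in TTg than in Ctrl at 3 months (median 0.39), a list that holds the 4 factors of the transgene, and 0 passed limma's test. After Tbx5 and Mef2c the largest difference was that of Hand2 (0.98 ± 0.44). Ventricular myocyte markers had a median of 0.05 (4 of 5 higher), but they were uneven. Mpped2 (0.95 ± 0.50) and Irx4 (0.77 ± 0.40) differed most, and Myl2 was near the top of the scale, with a mean of 19.93. The median was -0.04 for endothelial markers (4 of 9 higher) and -0.28 for mural cell markers (4 of 10 higher). For neuron and Schwann cell markers it was -0.10 (3 of 8 higher, 4 of the 8 dim).

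Over the 6 arrays, the pair of the 10 genes most alike was Kcnh2 and Kcnj12, with a Pearson correlation of 0.982, and Kcnh2 and Kcnj2 reached 0.937. Between Kcnd2 and Kcnip2 it was -0.02. Among 13849 other features above the dim threshold, Kcnj2 was most like Defb25 (0.996), Klhl7 (0.990) and Plpbp (0.990), and Kcnh2 most like Rhot1 (0.997), Atg2b (0.995) and Zfp386 (0.995). With 6 arrays such values are frequent, as 263 features exceeded 0.9 with Kcnj2 and 269 with Kcnh2. Kcnd2 was most like Aak1 (0.999) and Kcnip2 most like Chchd3 (0.998). The correlations are descriptions that carry the spread between arrays described above.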

How the data were processed

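Whole-heart RNA of 6 mice was hybridised to Clariom S arrays, per the labels' protocols from 100 ng of total RNA (RNA integrity number above 7.0). The deposited values are log2 values, 1 per feature and array, summarised by the authors. The submitters' processing notes name Transcriptome Analysis Console 4.0. The background, summary and normalization methods are not given in the sources used here. Array medians were 4.91 to 5.00, and values near the top of 19.93 may be compressed. The values were used as deposited.

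Groups came from the sample titles. Each comparison was fitted with limma 3.58.1 in R 4.3.3 to all 22206 features and all 6 arrays, with 1 coefficient per group (3 residual and 4.13 prior degrees of freedom). Tests were two-sided, adjusted by Benjamini-Hochberg over all features, with a threshold of 0.05. The smallest two-sided p of an exact permutation test is 0.333 at this size. The fit was tested on simulated data of the same size. Each simulated feature had a spread drawn at random from those of all features, and features varied independently of each other. The rates are therefore not those of the 10 genes, whose SEs were 0.27 to 0.53. Added differences of 1, 2 and 4 on the log2 scale passed the adjusted threshold in 0.571%, 46.0% and 88.3% of cases. A gene that did not pass may therefore still differ.

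Symbols came from the platform annotation, and 2634 features had none. Genes of other lists not found by symbol were matched by gene ID, and where features shared a symbol the one with the highest mean was used. The 10 genes and all lists were chosen with earlier results of these data known. Besides all 10, each list names up to 3 genes above the dim threshold with the largest absolute difference, since no list member passed. For each of the 10, the 3 features with the highest Pearson correlation were found. No value was tested over a list. Alternatives were quantile normalization, median centring, a trended or robust prior, features above the dim threshold or with 1 symbol, a fit to only the 2 groups compared, the replicate number as a block, unadjusted p-values, averaging of repeated features, leaving out each array and, added after the data were seen, 2 shifts to equal cardiomyocyte marker levels.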

Additional observations from a re-analysis of the deposited data

How the results depend on the processing

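The counts of features and of the 10 genes past the threshold, the median of the 10 and their differences were recomputed under 18 alternatives. None of the 10 genes passed an adjusted p under 0.05 in any of them. At an unadjusted p under 0.05, 3, 1 and 1 of the 10 passed for TTg against Ctrl at 3 months, Ctrl at 3 against 2 months, and TTg against Ctrl at 2 months, beside 1658, 1776 and 2156 features. For TTg against Ctrl at 3 months, Kcnj2, Kcnh2 and Kcnj5 kept their sign in all 18, at 1.64 to 2.86, 0.67 to 2.11 and 0.76 to 1.19, as did Kcnj12 and Kcnd2. Among the other 5, signs turned under quantile normalization (Kcnd3 0.012), under the shift by 12 cardiomyocyte markers (Kcna5 -0.11) and under the shift by the 7 below 19 (Kcna5 -0.15). For Ctrl at 3 against 2 months, the shift by the 7 turned Kcnj11 (-0.044) and Kcna5 (-0.0043). For TTg against Ctrl at 2 months, the shift by 12 turned Kcnj5 (-0.091) and Kcna5 (-0.011), and the shift by the 7 turned the median (-0.054), Kcnj12 (-0.12), Kcnj5 (-0.23), Kcnd3 (-0.11) and Kcna5 (-0.15).

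Each array was left out in turn, with the spread of a group of 1 then taken from the groups that kept 2. For TTg against Ctrl at 3 months, the differences then ran from -0.11 to 0.89 for Kcnj11, -0.30 to 0.20 for Kcnd3, -0.02 to 1.09 for Kcnip2, -0.06 to 1.03 for Kcnq1 and -0.38 to 0.50 for Kcna5. For Ctrl at 3 against 2 months they ran from -0.71 to 0.20 for the median, -0.86 to 0.13 for Kcnj12, -0.45 to 0.78 for Kcnj11, -0.12 to 0.83 for Kcnd3, -0.57 to 0.44 for Kcnq1 and -0.27 to 0.68 for Kcna5. For TTg against Ctrl at 2 months they ran from -0.033 to 0.76 for the median, -0.06 to 1.17 for Kcnj11, -0.03 to 0.40 for Kcnj5, -0.17 to 0.78 for Kcnd3, -0.08 to 1.06 for Kcnh2, -0.13 to 0.97 for Kcnq1 and -0.21 to 0.74 for Kcna5.

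The count of features past the threshold, 1 of 22206 at 3 months for TTg against Ctrl, was 2 with the compared groups alone, 3 with the shift by the 7 markers and 0 to 2 with 1 array left out. For Ctrl at 3 against 2 months it was 1, and 0 under quantile normalization, an intensity trend or without dim features, and 0 to 6 with 1 array left out. For TTg against Ctrl at 2 months it was 0, and 1 with a robust prior, 1 and 8 with the shifts by 12 and by 7 markers, and 0 to 22 with 1 array left out. The cause was not tested. Arrays with the same number are not known to be paired, though their deviations correlated at 0.12 to 0.14 across features. With the replicate block, 11 features passed for TTg against Ctrl at 3 months, 1 for Ctrl at 3 against 2 months and 5 for TTg against Ctrl at 2 months, and none of the 10 genes did. The adjusted p of Kcnj2 at 3 months was 0.0890 in that limma fit, the lowest of a range up to 0.999 over the alternatives.

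For TTg against Ctrl at 3 months, the list medians printed for it and the other named genes were recomputed too. The exceptions were Bmp10, Myl7, Myl4, Scn4b, Ryr2, Mpped2 and Irx4. So were Kcnk3 and the medians by current for Ctrl at 3 against 2 months. Counts of atrial and working cardiomyocyte markers and of groups that do not overlap, levels and correlations were not. Of the other genes, Kcne1 (-0.02 to 0.85) and Gata4 (-0.055 to 0.57) turned sign with 1 array left out. Medians that turned were those of other potassium subunits (median centring 0.035, dim features left out 0.10), endothelial markers (quantile normalization 0.039, median centring 0.0050), neuron and Schwann cell markers (dim features left out 0.060), depolarising channels (-0.096 and -0.14 with the shifts by 12 and by 7 markers) and ventricular markers (-0.12 and -0.16 with them). With 1 array left out, medians that turned ran from -0.04 to 0.095 for other potassium subunits, -0.44 to 0.11 for endothelial markers, -0.13 to 0.075 for neuron and Schwann cell markers, -0.02 to 0.79 for transient outward genes and -0.06 to 1.03 for delayed rectifier genes. For Ctrl at 3 against 2 months the last pair ran from -0.12 to 0.83 and -0.57 to 0.27.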
